A study of Mus musculus with 10 samples.

Results

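Leukocyte adhesion molecules and integrins were followed in the hippocampus of mice before and after pilocarpine (PILO)-induced status epilepticus (SE), with and without levetiracetam (LEV), an antiepileptic drug that binds a synaptic vesicle protein. The members were 9 genes chosen by symbol: *Icam1*, *Icam2*, *Vcam1* and *Selp*, whose products sit on vessel walls, and *Itgam*, *Itgb2*, *Itga4*, *Itgal* and *Itgax*, which encode integrin subunits of leukocytes and microglia. Of these, 7 had values among the 15900 genes with values, and *Selp* and *Itgal* were not analysed here. Cap analysis of gene expression (CAGE), which sequences the capped 5′ ends of transcripts, had been applied to whole hippocampi of 10 male ICR mice aged 9 to 10 weeks, in 5 groups of 2 mice. Pre-SE mice are labelled untreated, and the methods of the study give its control mice saline in place of PILO. The SE 6 h and SE 2 days groups received methyl scopolamine at 1 mg/kg and PILO at 290 mg/kg, had their seizures ended with diazepam at 10 mg/kg and were sampled 6 h or 2 days later. The SE + LEV 6 h and SE + LEV 2 days groups were treated in the same way and also received oral LEV at 360 mg/kg, begun within 30 min of diazepam and given 1 time before the 6 h sample and 5 times before the 2 days sample.

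Leukocytes leave the blood in steps. Selectins let them roll along the endothelium, chemokines switch their integrins to a binding state, the integrins then hold on to members of the immunoglobulin family on the vessel wall, and the cells cross it. The β2 integrins share the *Itgb2* chain (CD18), which pairs with *Itgal* (LFA-1), *Itgam* (Mac-1, complement receptor 3) or *Itgax* (complement receptor 4), and ICAM-1 and ICAM-2 are their ligands. The α4 chain encoded by *Itga4* forms VLA-4, the receptor of VCAM-1. In brain tissue *Itgam*, *Itgb2* and *Itgax* are also genes of microglia, the resident macrophages, and ICAM-1 and VCAM-1 are known to be made by endothelium and astrocytes under inflammation.

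The values are CPM, the CAGE tags of a gene scaled to the total of its library. They are given as replicate 1 and replicate 2 of the groups, called before SE, at 6 h, at 6 h with LEV, at 2 days and at 2 days with LEV. Because a transcript gives 1 tag at its cap whatever its length, CPM of different genes can be set side by side without division by length. The libraries held 10540698 to 51710968 tags on the listed genes, with a median of 26671413, and the limit of detection, set at 3 tags, lay between 0.058 and 0.285 CPM. Changes are given as logFC, the difference between group means of log2(CPM + 0.1), with the standard error or the 95% confidence interval from 1 limma fit of all 10 libraries. Genes with a Benjamini-Hochberg adjusted p of at most 0.05 over the 15851 genes tested, among them all 7 members with values, were called. Markers of neurons (6 of 6 with values, summing to 3448 to 6602 CPM) and astrocytes (5 of 5, 1230 to 2192 CPM) were high in every library. The summed markers of choroid plexus, a neighbouring tissue, ran from 8.5 to 3999 CPM and exceeded 100 CPM in 4 libraries that stand apart: pre-SE replicate 2, SE 6 h replicate 2, SE + LEV 6 h replicate 1 and SE + LEV 2 days replicate 1. Values without these 4 libraries are given beside the calls of members and as counts beside those of other genes. That fit leaves 6 libraries, with 2 mice only in SE 2 days, so that the lone mice of the other groups are assumed to vary like those. The summed β-globin genes of red cells were at 22.6 and 23.8 CPM before SE and at 2.79 to 12.5 CPM in the 8 mice after SE, and their part in the values of blood leukocyte genes was not tested.

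After SE, *Icam1* was called higher at both times and *Itgb2* and *Itgax* at 2 days, *Vcam1*, *Icam2* and *Itgam* had positive logFC values at 2 days that did not pass the test, and no mouse had more *Itga4* than both pre-SE mice. In SE 6 h mice 1 of 7 (*Icam1*) was called higher, against 2.76% of the 15851 genes tested, and 0 of 7 lower, against 0.202%. No overlap, with the SE 6 h mice higher, was seen for 5 of 7 members and 18.6% of genes. An unadjusted limma p under 0.05 was seen for 3 of 7 members and 2809 of the 15851 genes. In SE 2 days mice 3 of 7 (*Itgb2*, *Icam1* and *Itgax*) were called higher, against 5.07%, and 0 of 7 lower, against 0.593%, while 6 of 7 lay above both pre-SE mice against 26.3% of genes. DESeq2 called 2 and 5 of the 7 and edgeR 1 and 3 at the 2 times, but their shares over all genes are not given here. The median logFC of the 7 was 0.73 at 6 h and 1.53 at 2 days, beside -0.13 and -0.03 over all genes tested. In SE + LEV 6 h mice 1 of 7 was called higher than in pre-SE mice (0.315% of genes) and in SE + LEV 2 days mice 3 of 7 (2.83% of genes), in comparisons that use the same pre-SE mice. In whole hippocampus a change in the number of cells of a type and a change in RNA per cell cannot be told apart.

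**Figure D1:**
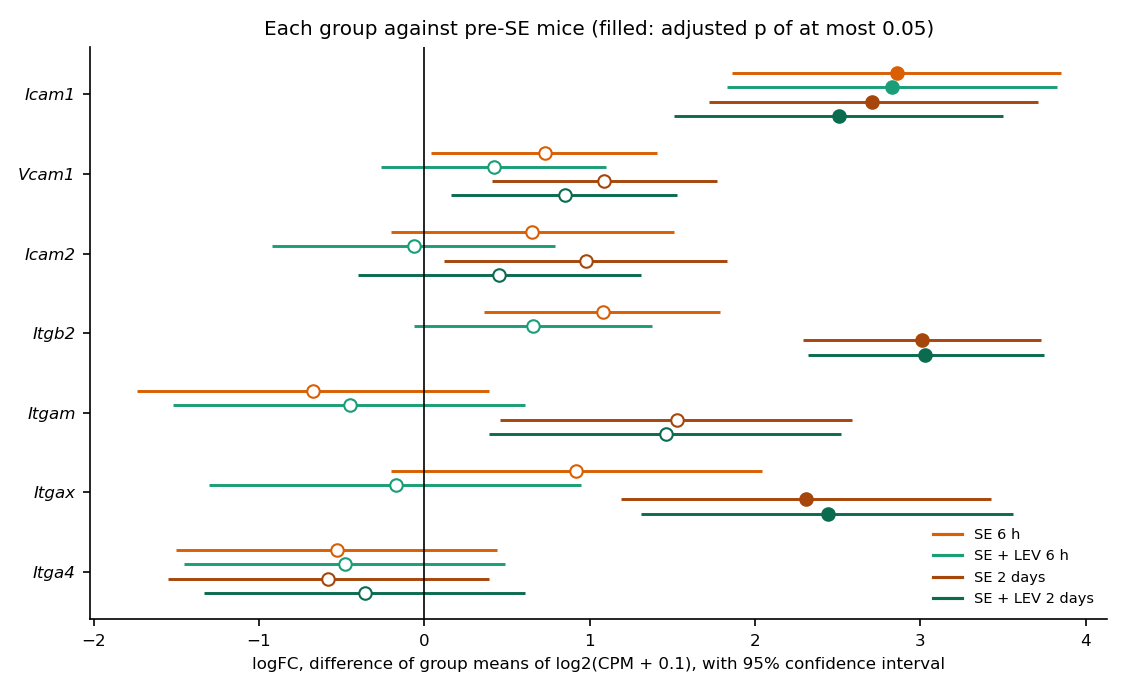
LogFC of each gene in the 4 groups after SE against pre-SE mice (horizontal axis, log2 scale) with 95% confidence intervals; filled points have an adjusted p of at most 0.05. *Icam1* is filled in all 4 groups, *Itgb2* and *Itgax* in the 2 days groups, and the other genes in none.

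*Icam1* rose to a high level within 6 h of SE and stood at a similar level at 2 days. Its product, ICAM-1, is the endothelial and glial ligand to which β2 integrins attach. *Icam1* was at 1.52 and 1.59 CPM before SE, 8.98 and 15.76 CPM at 6 h, 18.37 and 7.40 CPM at 6 h with LEV, 12.63 and 9.12 CPM at 2 days, and 9.78 and 8.87 CPM at 2 days with LEV. All 8 of 8 mice after SE were above both pre-SE mice, and the 4 groups after SE overlapped one another. In each group with a library high in choroid plexus markers, that library had the higher *Icam1* value, though narrowly before SE. The part of this tissue in the *Icam1* values was not tested. Behind these values were 44 and 82 tags in the pre-SE mice and 78 to 553 tags in the others. Against pre-SE the logFC was 2.86 (standard error 0.45, adjusted p = 0.0092) in SE 6 h mice, a 7.25-fold difference, and 2.71 (standard error 0.45, adjusted p = 0.0067) in SE 2 days mice, a 6.55-fold difference. With LEV the logFC against the same pre-SE mice was 2.83 (adjusted p = 0.033) at 6 h and 2.51 (adjusted p = 0.014) at 2 days.

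**Figure D2:**
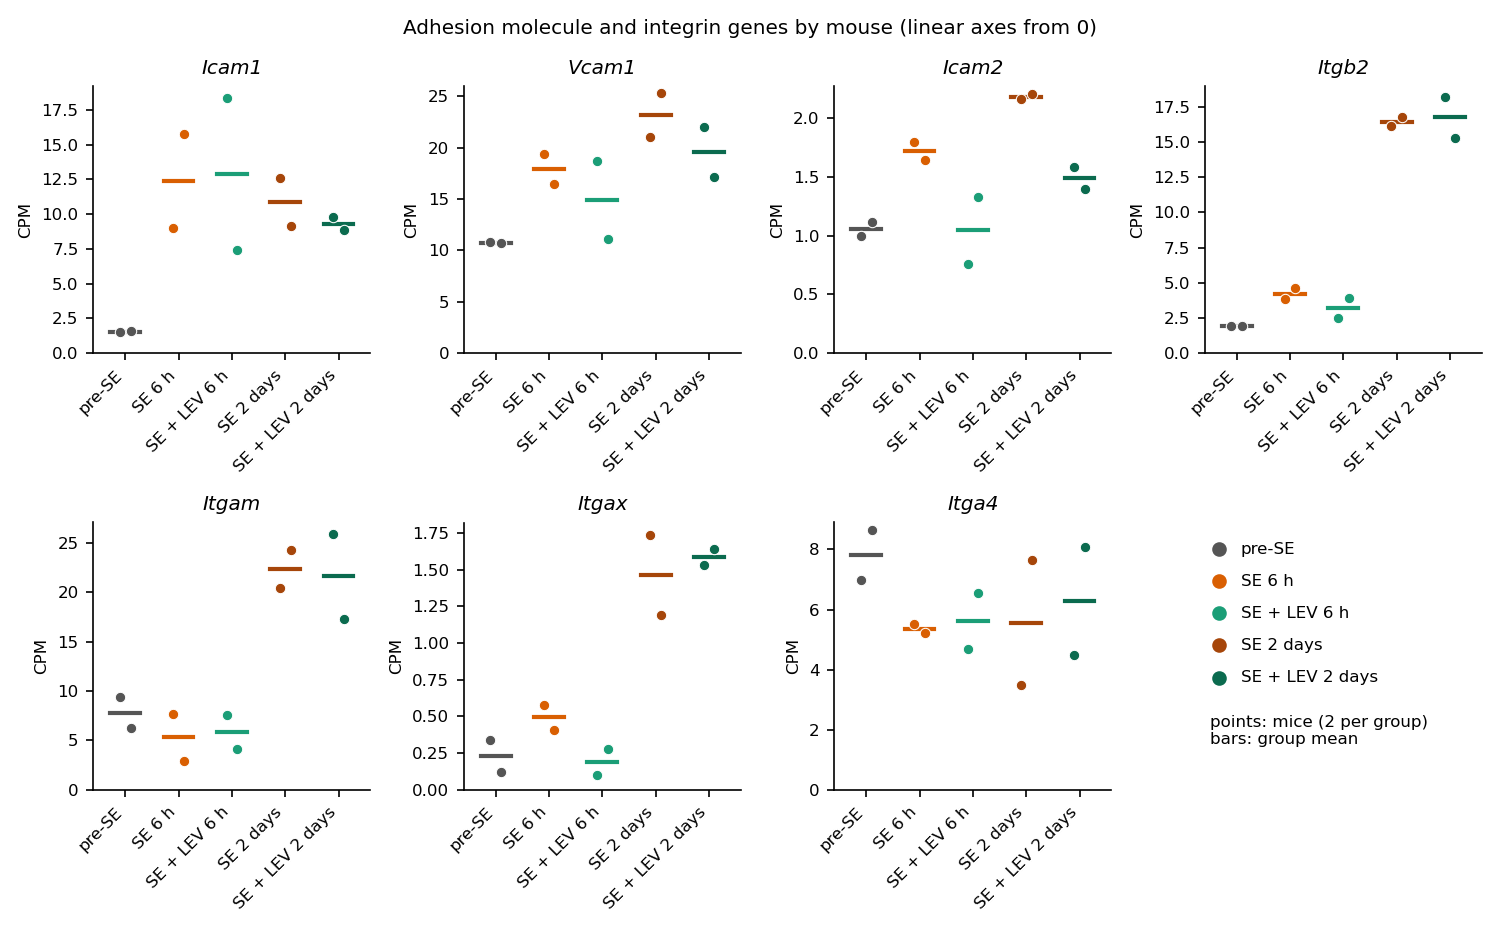
CPM of the 7 genes (vertical axes, linear from 0) in the 5 groups (horizontal axes); points are the 2 mice of a group and bars the group mean. *Icam1* is near 1.5 CPM before SE and at 7.40 to 18.37 CPM in all mice after it, whereas *Itgb2*, *Itgam* and *Itgax* are highest in the 4 mice of the 2 days groups.

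The *Icam1* call at 6 h depended on the mice included. Without pre-SE replicate 1, pre-SE replicate 2 or SE 6 h replicate 2, the logFC in SE 6 h mice was 2.83, 2.89 and 2.46, with limma adjusted p of 0.061, 0.053 and 0.095, and without SE 6 h replicate 1 it was 3.26 (adjusted p = 0.031). Without the 4 libraries high in choroid plexus markers it was 2.49 at 6 h (adjusted p = 0.27) and 2.74 at 2 days (adjusted p = 0.06). Over the 16 alternatives run, the adjusted p ran from 1.1e-08 to 0.27 at 6 h and from 1.9e-07 to 0.06 at 2 days, where only the choroid plexus alternative of these 16 ended the call. In SE + LEV mice the call was lost without pre-SE replicate 1, pre-SE replicate 2 or replicate 1 of the LEV group, with logFC of 2.80, 2.86 and 2.18 and adjusted p of 0.18, 0.17 and 0.19 at 6 h, and logFC of 2.48, 2.54 and 2.44 and adjusted p of 0.096, 0.078 and 0.11 at 2 days. Without replicate 2 of the LEV group it was 3.48 (adjusted p = 0.048) and 2.58 (adjusted p = 0.034), and without the 4 libraries 2.21 (adjusted p = 0.51) and 2.47 (adjusted p = 0.33). The LEV 6 h call was also lost with pseudocounts of 0.5 and 1, the replicate block, no trend and only the groups compared, and was kept in 7 of 16 alternatives (adjusted p of 2e-08 to 0.51). The LEV 2 days call was also lost with only the groups compared (adjusted p = 0.063), and was kept in 12 of 17 (4.9e-06 to 0.33).

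*Icam1* lies on the + strand of chromosome 9 (mm9 chr9:20820404-20833241) and has 7 exons in the annotation. An entry for *Mir1900* on the other strand overlaps *Icam1*. A transcript on the opposite strand could share counts if strand was ignored, which the study does not state for the gene table. *Mir1900* was at 1.48 to 3.21 CPM, highest in the pre-SE mice (3.21 and 3.17 CPM), so its values did not move with those of *Icam1*. The promoter of *Icam1* (RefSeq, GRCm38.p6 chr9:21015690-21015989, + strand, 250 bases before to 50 bases after the start) is shown because CAGE tags count starts of transcription. Capitals mark matches to GGNNNTTCC, a loose NF-kappaB motif searched on both strands, at positions -153 and -84 from the start. The match at -153 fits the motif on both strands and the one at -84 on the opposite strand only.
Icam1: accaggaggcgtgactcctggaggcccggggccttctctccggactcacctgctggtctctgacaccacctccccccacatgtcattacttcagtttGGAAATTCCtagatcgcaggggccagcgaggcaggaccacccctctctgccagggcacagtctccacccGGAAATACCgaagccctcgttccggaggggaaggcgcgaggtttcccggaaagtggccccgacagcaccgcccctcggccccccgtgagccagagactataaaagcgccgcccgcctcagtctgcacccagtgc
The motif was present in 18.5% of the 32851 promoters of the table, so a match is a description and not a site. Promoter windows were found for *Icam1*, *Selp*, *Itgam*, *Itga4* and *Itgax*, of which *Icam1* and *Selp* held this motif; those of *Icam2*, *Vcam1*, *Itgb2* and *Itgal* were not used here.

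*Vcam1* and *Icam2* were higher in both mice of each SE group than in both pre-SE mice, but neither passed the test. *Vcam1*, the ligand of α4 integrins (mm9 chr3:115812938-115832606, - strand), was at 10.79 and 10.75 CPM before SE, 19.34 and 16.51 CPM at 6 h, 18.74 and 11.10 CPM at 6 h with LEV, 20.99 and 25.27 CPM at 2 days and 22.04 and 17.13 CPM at 2 days with LEV. Its logFC against pre-SE was 0.73 (95% confidence interval 0.04 to 1.41, limma adjusted p = 0.25) in SE 6 h mice and 1.09 (0.41 to 1.77, adjusted p = 0.069) in SE 2 days mice. DESeq2 on the recovered tags called it at 2 days (adjusted p = 0.018), and over 16 alternatives the adjusted p at 2 days ran from 0.018 to 0.42. *Vcam1* was the most abundant of the 3 vessel wall genes in every library, and all 8 mice after SE were above both pre-SE mice. For SE + LEV 6 h replicate 2 the margin was small, at 11.10 CPM beside 10.79 and 10.75 CPM. The logFC of SE + LEV 6 h mice against pre-SE was 0.42, and 0.04 without replicate 1 of that group.

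*Icam2* is a constitutive ligand of LFA-1 on endothelium (mm9 chr11:106238970-106249389, - strand). It was at 1.0 and 1.12 CPM before SE, 1.80 and 1.64 CPM at 6 h, 0.76 and 1.33 CPM at 6 h with LEV, 2.16 and 2.2 CPM at 2 days and 1.58 and 1.4 CPM at 2 days with LEV. With 14 to 69 tags a library, its levels were known less well than those of *Vcam1*. The logFC against pre-SE was 0.65 (-0.20 to 1.51, limma adjusted p = 0.40) in SE 6 h mice and 0.98 (0.12 to 1.83, adjusted p = 0.19) in SE 2 days mice. At each time both SE mice lay above both SE + LEV mice, a difference taken up with the LEV comparisons.

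The summed markers of endothelium were higher after SE, but few single markers passed the test. All 9 of 9 had values, and they summed to 88.9 and 86.2 CPM before SE, 125 and 192 CPM at 6 h, 107 and 173 CPM at 6 h with LEV, 156 and 128 CPM at 2 days and 116 and 187 CPM at 2 days with LEV. *Cdh5*, the cadherin of endothelial junctions, was called higher in SE 6 h mice and none of the 9 in SE 2 days mice. *Flt1* made up much of the sum (19.66 and 27.94 CPM before SE, 40.96 and 87.16 CPM at 6 h), whereas *Slco1a4*, a transporter of the blood-brain barrier, was at 16.24 and 13.11 CPM before SE and 3.75 and 4.8 CPM at 6 h. Per 100 CPM of the endothelial markers of its own library, *Icam1* was at 1.71 and 1.85 CPM before SE and at 4.28 to 17.1 CPM in the 8 mice after SE, so it was higher relative to these markers as well. On the same scale *Vcam1* was at 12.1 and 12.5 before SE and 6.42 to 19.7 after SE, and *Icam2* at 1.12 and 1.30 and at 0.709 to 1.72, so that for both the mice after SE lay on both sides of the pre-SE values.

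The β2 integrin genes were highest in the 4 mice of the 2 days groups. *Itgb2* encodes the chain common to the β2 integrins (mm9 chr10:76992997-77028453, + strand). It was at 1.93 and 1.97 CPM before SE, 3.82 and 4.66 CPM at 6 h, 2.53 and 3.89 CPM at 6 h with LEV, 16.15 and 16.76 CPM at 2 days and 18.17 and 15.32 CPM at 2 days with LEV. The order was thus pre-SE, then the 6 h groups, then the 2 days groups, with no overlap between these 3 levels and with overlap between SE and SE + LEV within each time. *Itgb2* rose by 3.01 on the log2 scale (standard error 0.32, limma adjusted p = 0.0013) in SE 2 days mice, an 8.07-fold difference, and by 3.03 (adjusted p = 0.0020) in SE + LEV 2 days mice against the same pre-SE mice. At 6 h its logFC was 1.08 (0.36 to 1.79, adjusted p = 0.12) in SE mice, which DESeq2 called (adjusted p = 0.010; 0.010 to 0.71 over 16 alternatives). The call at 2 days in SE mice held in all 16 alternatives, with a logFC of 3.03 (adjusted p = 0.044) without the libraries high in choroid plexus markers. That in SE + LEV 2 days mice was lost in 2 of 17 alternatives, without those libraries (2.93, adjusted p = 0.27) and in a fit of only the groups compared (3.03, adjusted p = 0.051).

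*Itgam* (CD11b), the α chain of Mac-1, was already well expressed before SE. It was at 9.38 and 6.25 CPM before SE, 7.67 and 2.95 CPM at 6 h, 7.58 and 4.08 CPM at 6 h with LEV, 20.39 and 24.26 CPM at 2 days and 25.90 and 17.33 CPM at 2 days with LEV. None of the 4 mice at 6 h was above both pre-SE mice, and all 4 mice at 2 days were. Against pre-SE the logFC was -0.67 (-1.74 to 0.39, limma adjusted p = 0.49) at 6 h and 1.53 (0.46 to 2.59, adjusted p = 0.10) at 2 days in SE mice, so neither passed the test. A limma fit of only the groups compared (adjusted p = 0.040) and DESeq2 (adjusted p = 0.019) called it at 2 days, and the adjusted p ran from 0.019 to 0.48 over 16 alternatives.

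*Itgax* (CD11c), the α chain of complement receptor 4, had the lowest mean of the 7 in every group except SE + LEV 2 days. In that group the mean was 1.58 CPM for *Itgax* and 1.49 CPM for *Icam2*. *Itgax* was at 0.34 and 0.12 CPM before SE, 0.58 and 0.41 CPM at 6 h, 0.10 and 0.28 CPM at 6 h with LEV, 1.74 and 1.19 CPM at 2 days and 1.53 and 1.64 CPM at 2 days with LEV. These were 3 to 18 tags in the pre-SE and 6 h libraries and 25 to 67 tags in the 2 days libraries, so the lower levels sat near the limit of detection. *Itgax* rose by 2.31 on the log2 scale (standard error 0.50, limma adjusted p = 0.026) in SE 2 days mice and 2.44 (adjusted p = 0.030) in SE + LEV 2 days mice. The call in SE 2 days mice was lost when any of the 4 mice was left out, with a logFC of 2.81 and an adjusted p of 0.0504 without pre-SE replicate 1, 1.81 and 0.16 without pre-SE replicate 2, 2.05 and 0.11 without SE 2 days replicate 1, and 2.56 and 0.11 without SE 2 days replicate 2. It was also lost with a pseudocount of 0.01 (adjusted p = 0.051) and without the libraries high in choroid plexus markers (logFC 1.81, adjusted p = 0.15), out of a range of 0.0083 to 0.16 over 16 alternatives. In SE + LEV 2 days mice it was likewise lost when any of the 4 mice was left out, with logFC of 1.94 to 2.94 and adjusted p of 0.066 to 0.24, and without the 4 libraries (1.98, adjusted p = 0.49). A pseudocount of 0.01 (adjusted p = 0.066), a filter of 1 CPM in 2 libraries (0.051) and only the groups compared (0.12) also ended it, and it was kept in 9 of 17 alternatives.

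*Itgam* and *Itgax* are neighbours on the + strand of chromosome 7 (mm9 chr7:135206154-135271674 and chr7:135273061-135294171), with 1386 bases between the end of the first and the start of the second. Their promoters (RefSeq, GRCm38.p6 chr7:128062390-128062689 and chr7:128129300-128129599, + strand) are shown because both neighbours were highest in the 4 mice at 2 days. Capitals mark, in *Itgam*, GAGGAAG or its reverse complement, the letters of a PU.1 motif (13.6% of promoters), and in *Itgax* a match to TGANTCA, an AP-1 motif (7.81% of promoters), both searched on both strands.
Itgam: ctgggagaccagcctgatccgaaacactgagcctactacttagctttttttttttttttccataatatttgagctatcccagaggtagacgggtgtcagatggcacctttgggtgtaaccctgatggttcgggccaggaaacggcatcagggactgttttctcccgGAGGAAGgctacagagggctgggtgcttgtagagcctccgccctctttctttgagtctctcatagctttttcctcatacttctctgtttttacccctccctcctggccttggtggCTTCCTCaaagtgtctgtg
Itgax: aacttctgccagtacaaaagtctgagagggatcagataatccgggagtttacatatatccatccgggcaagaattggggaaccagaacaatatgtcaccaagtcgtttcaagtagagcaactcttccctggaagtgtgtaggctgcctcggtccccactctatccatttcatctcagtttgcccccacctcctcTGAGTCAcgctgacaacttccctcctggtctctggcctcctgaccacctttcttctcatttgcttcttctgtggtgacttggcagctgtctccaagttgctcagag
The matches in *Itgam* began at -84 and 32 from the start, and that in *Itgax* at -56, so the windows of these neighbours shared no match to any of the 3 motifs searched. The window of *Itga4* held none of these motifs and that of *Selp* held an AP-1 match.

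Microglial markers were also highest at 2 days. All 9 of 9 had values, and their sum was 384 and 449 CPM before SE, 298 and 278 CPM at 6 h, 300 and 286 CPM at 6 h with LEV, 880 and 1022 CPM at 2 days and 1163 and 970 CPM at 2 days with LEV. Individual markers did not move together: *P2ry12* and *Tmem119*, homeostatic genes of microglia, were called lower in SE 6 h mice, and *Aif1*, a cytoskeletal gene of microglia, was called higher in SE 2 days mice. Per 100 CPM of these markers, *Itgam* was at 2.44 and 1.39 CPM before SE, 2.58 and 1.06 CPM at 6 h and 2.32 and 2.37 CPM at 2 days, so the groups overlapped on this scale. *Itgb2* was at 0.502 and 0.438 before SE, 1.28 and 1.68 at 6 h and 1.84 and 1.64 at 2 days, and all 8 mice after SE (0.843 to 1.84) were above both pre-SE mice. *Itgax* was at 0.0885 and 0.0267 before SE, 0.195 and 0.147 at 6 h and 0.198 and 0.116 at 2 days. These ratios are descriptions, and the part of microglial number in the integrin values was not tested.

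**Figure D3:**
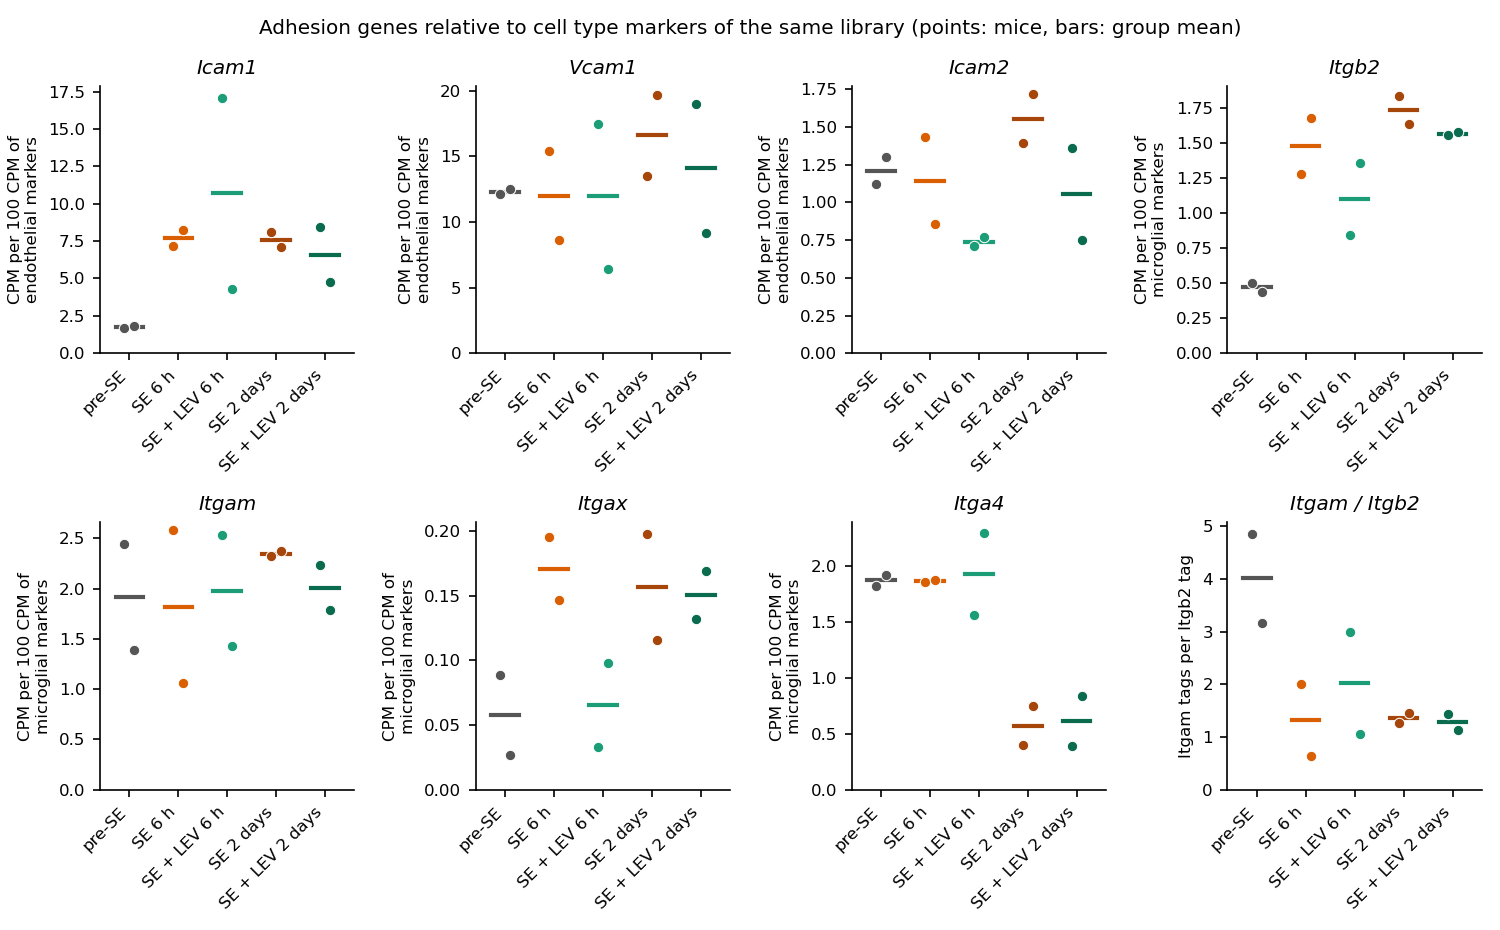
CPM of each gene per 100 CPM of the summed endothelial markers (*Icam1*, *Vcam1*, *Icam2*) or microglial markers (*Itgb2*, *Itgam*, *Itgax*, *Itga4*) of the same library, and *Itgam* tags per *Itgb2* tag in the last panel; points are mice and bars group means, on linear axes from 0. *Icam1* and *Itgb2* are above both pre-SE mice in all mice after SE on this scale, and the *Itgam* values of each group after SE overlap the range of the pre-SE mice.

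The number of *Itgam* tags per *Itgb2* tag was lower in every mouse after SE. There were 4.86 and 3.17 *Itgam* tags per *Itgb2* tag before SE, 2.01 and 0.632 at 6 h, 3.0 and 1.05 at 6 h with LEV, 1.26 and 1.45 at 2 days and 1.43 and 1.13 at 2 days with LEV. This ratio needs no scaling between libraries.

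Markers of T cells, B cells and neutrophils were scarce, and the higher sum of monocyte and macrophage markers rested largely on *Vcan* and *Lyz2*. Of T cell markers 1 of 9 (*Lck*, 0.55 to 1.21 CPM in the 10 mice) and of B cell markers 0 of 4 had values here. Of neutrophil markers 3 of 11 had values, summing to 0.59 and 1.62 CPM before SE, 6.70 and 6.23 CPM at 6 h and 1.18 and 4.87 CPM at 2 days, and *Mpo*, the myeloperoxidase gene, was called higher in SE 6 h mice. Of monocyte and macrophage markers 7 of 10 had values, without *Ccr2* and *Ly6c2*, and they summed to 24.6 and 22.8 CPM before SE, 30.1 and 27.9 CPM at 6 h and 64.4 and 113 CPM at 2 days, where *Ms4a7*, *Plac8* and *Lyz2* were called higher. With LEV at 2 days they summed to 123 and 44.8 CPM. Of these markers *Vcan* alone was at 16.07 and 14.21 CPM before SE, and *Lyz2* alone at 30.06 and 63.19 CPM at 2 days. Without the 4 libraries high in choroid plexus markers *Aif1* (logFC 2.70, adjusted p = 0.035) was still called, and *Cdh5*, *P2ry12*, *Tmem119*, *Mpo*, *Ms4a7*, *Plac8* and *Lyz2* were not. The part of infiltrating cells in the integrin values was not tested.

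*Itga4*, the α chain of VLA-4 on lymphocytes and monocytes, was not called in any comparison with pre-SE mice. It was at 7.0 and 8.64 CPM before SE, 5.52 and 5.21 CPM at 6 h, 4.68 and 6.55 CPM at 6 h with LEV, 3.48 and 7.64 CPM at 2 days and 4.50 and 8.09 CPM at 2 days with LEV. No mouse after SE was above both pre-SE mice and 6 of 8 were below both, yet neighbouring groups in the order of means all overlapped. The logFC against pre-SE was -0.53 (-1.50 to 0.44, limma adjusted p = 0.56) in SE 6 h mice and -0.58 (-1.55 to 0.39, adjusted p = 0.53) in SE 2 days mice. Per 100 CPM of microglial markers *Itga4* was at 1.82 and 1.92 CPM before SE, 1.85 and 1.87 CPM at 6 h, 1.56 and 2.29 CPM at 6 h with LEV, 0.396 and 0.747 CPM at 2 days and 0.387 and 0.834 CPM at 2 days with LEV. On this scale, a description with no test, the 4 mice at 2 days lay below all others. *Itga4* (mm9 chr2:79095583-79173280, + strand) overlaps *Cerkl* on the other strand, which was at 38.21 and 53.28 CPM before SE and 11.94 to 33.52 CPM after SE, so its counts are uncertain if strand was ignored.

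The times were then compared directly. Between 6 h and 2 days after SE, 2 of 7 members were called higher, against 3.14% of genes: *Itgb2* by 1.94 on the log2 scale (standard error 0.32, limma adjusted p = 0.010) and *Itgam* by 2.2 (standard error 0.48, adjusted p = 0.033). Between SE + LEV 6 h and SE + LEV 2 days, 2 of 7 were called higher, against 2.06% of genes: *Itgb2* with 2.37 (adjusted p = 0.0063) and *Itgax* with 2.61 (adjusted p = 0.028). *Icam1* differed by -0.15 (-1.14 to 0.85, adjusted p = 0.88) in SE mice and -0.32 (-1.32 to 0.67, adjusted p = 0.81) in SE + LEV mice. For *Itgam* the call depended on SE 6 h replicate 2, without which the logFC was 1.52 (adjusted p = 0.17), and was also lost without SE 2 days replicate 1 (2.32, adjusted p = 0.14) or SE 2 days replicate 2 (2.07, adjusted p = 0.17). For *Itgb2* the call in SE mice was lost with any of the 4 mice left out, at logFC of 1.80 to 2.08 and adjusted p of 0.051 to 0.079. In SE + LEV mice the *Itgb2* call was lost without SE + LEV 6 h replicate 1 (2.07, adjusted p = 0.051) or SE + LEV 2 days replicate 1 (2.25, adjusted p = 0.072), and the *Itgax* call without any of the 4 mice (2.15 to 3.07, adjusted p of 0.056 to 0.20). Without the libraries high in choroid plexus markers none of these was called, with logFC of 2.08 for *Itgb2* and 1.52 for *Itgam* in SE mice (adjusted p of 0.11 and 0.14) and 1.95 for *Itgb2* and 2.2 for *Itgax* in SE + LEV mice (adjusted p of 0.60 and 0.72). Over 16 alternatives the calls were kept in 11 for *Itgb2* and 11 for *Itgam* in SE mice, and in 12 for *Itgb2* and 8 for *Itgax* in SE + LEV mice.

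The effect of LEV was the question of the study, and no member passed the test for it. Against SE mice of the same time, 0 of 7 members were called in SE + LEV 6 h mice and 0 of 7 in SE + LEV 2 days mice by limma, DESeq2 or edgeR, and 0 of 7 had an unadjusted limma p under 0.05 at either time. Of all genes, 0.0126% were called at 6 h and 0% at 2 days, with 726 and 428 genes at an unadjusted p under 0.05. The intervals were wide: the 95% confidence intervals reached 0.68 to 1.12 to each side of the logFC, so that changes of this size were not detectable with 2 mice a group.

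*Icam2* and *Itgax* had the most negative values in these comparisons. *Icam2* was at 0.76 and 1.33 CPM at 6 h with LEV beside 1.80 and 1.64 CPM at 6 h, a logFC of -0.71 (-1.57 to 0.14, limma adjusted p = 1), and at 1.58 and 1.4 CPM beside 2.16 and 2.2 CPM at 2 days, a logFC of -0.52 (-1.38 to 0.33, adjusted p = 1). Both LEV mice were below both SE mice at each time. *Itgax* was at 0.10 and 0.28 CPM beside 0.58 and 0.41 CPM at 6 h, a logFC of -1.10 (-2.22 to 0.03, adjusted p = 1) resting on 3 tags in each LEV library. The summed tags were 6 with LEV and 24 without, a ratio of 0.282 per tag sequenced (exact 95% interval 0.0941 to 0.707, for counting error only), and the groups overlapped at 2 days (logFC 0.13, -0.99 to 1.25). Members whose LEV mice were both below the SE mice numbered 2 of 7 at 6 h, against 13.4% of all genes, and 1 of 7 at 2 days, against 12.2%.

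The other members overlapped between LEV and SE mice at both times. For *Icam1* the logFC was -0.03 (-1.02 to 0.97) at 6 h and -0.20 (-1.20 to 0.79) at 2 days. At 6 h the 2 SE + LEV mice, at 18.37 and 7.40 CPM, enclosed the SE mice. The higher of these values came from a library high in choroid plexus markers. For *Vcam1* the logFC was -0.31 (-0.99 to 0.37) and -0.24 (-0.93 to 0.44). For *Itgb2* it was -0.42 (-1.13 to 0.30) and 0.02 (-0.70 to 0.74), the narrowest intervals among the integrins. For *Itgam* it was 0.22 (-0.85 to 1.28) and -0.07 (-1.13 to 1.0), and for *Itga4* 0.05 (-0.93 to 1.02) and 0.22 (-0.75 to 1.19). The limma adjusted p of every member was 1 at both times. The LEV effect at 2 days minus that at 6 h was called for 0 of 7 members and 0% of genes, with 0 of 7 members and 377 genes at an unadjusted p under 0.05, and was largest for *Itgax* (1.22, -0.36 to 2.81).

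**Figure D4:**
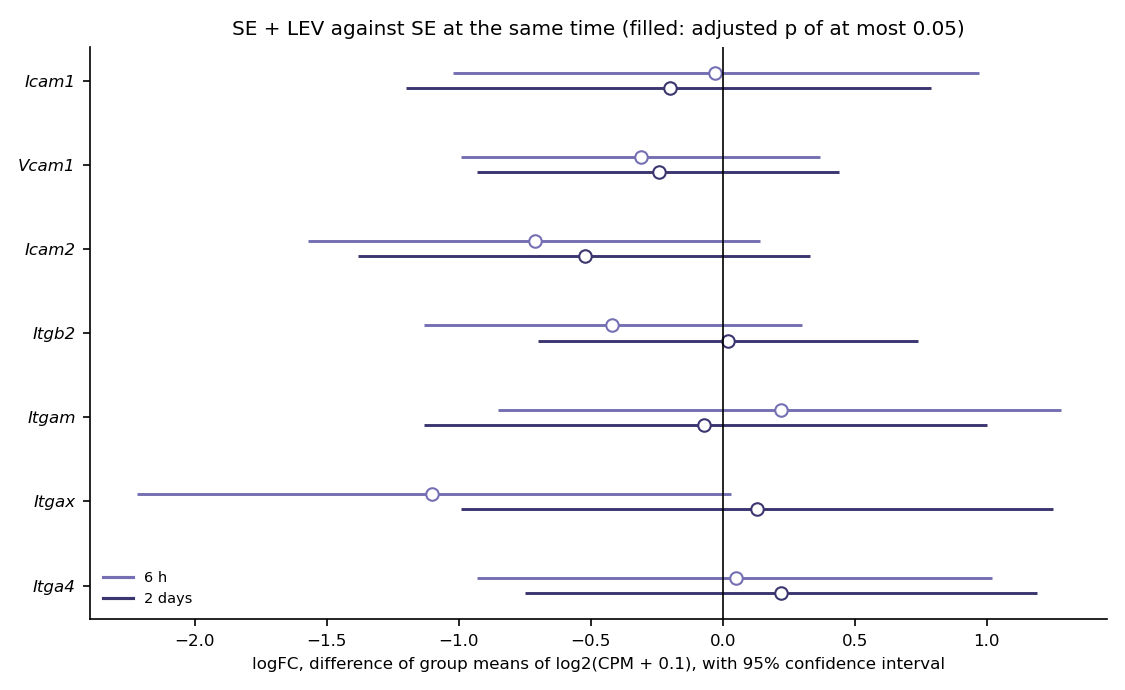
LogFC of SE + LEV against SE mice at 6 h and 2 days (horizontal axis, log2 scale) with 95% confidence intervals; open points have an adjusted p over 0.05. Every interval includes 0, and *Itgax* at 6 h has the lowest value, -1.10.

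Other genes of leukocyte adhesion and transmigration were described from a list of 51 symbols, of which 41 had values (42 entries, since *Cd47* has 2). Against pre-SE, SE 6 h mice had 3 of 42 entries called higher and 2 lower (2.76% and 0.202% of all genes), and SE 2 days mice had 5 higher and 0 lower (5.07% and 0.593%). The median logFC of the list was 0.19 and 0.48, beside -0.13 and -0.03 over all genes tested. For LEV against SE, 0 of 42 were called at either time, with 1 and 2 at an unadjusted limma p under 0.05.

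Without the 4 libraries high in choroid plexus markers, 0 of the 5 calls at 6 h and 2 of the 5 at 2 days (*Cd44* and *Itga5*) were kept.

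Called higher at 6 h were *Itga5*, *Msn* and *Esam*. *Itga5*, the α chain of the fibronectin receptor, was at 0.69 and 1.35 CPM before SE, 9.62 and 16.51 CPM at 6 h and 37.65 and 35.20 CPM at 2 days, and rose by a logFC of 3.57 (limma adjusted p = 0.034) and 5.09 (adjusted p = 0.0039). *Msn* encodes moesin, which links adhesion receptors such as ICAM-1 to actin, and was at 12.14 and 6.28 CPM before SE, 38.87 and 30.83 CPM at 6 h and 54.36 and 89.08 CPM at 2 days. Its logFC was 1.97 (adjusted p = 0.029) and 2.98 (adjusted p = 0.0027). *Esam*, an adhesion molecule of endothelial junctions, was at 7.79 and 5.67 CPM before SE and 16.90 and 27.54 CPM at 6 h, a logFC of 1.68 (adjusted p = 0.031), and at 11.28 and 13.04 CPM at 2 days.

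At 2 days the highest logFC values of the list were those of *Spp1* (osteopontin, a secreted ligand of integrins and CD44) and *Cd44* (the hyaluronan receptor). *Spp1* was at 2.48 and 1.10 CPM before SE and at 75.98 and 628.17 CPM at 2 days, a logFC of 6.96 (limma adjusted p = 0.0057) with the 2 mice far apart. *Cd44* was at 3.10 and 3.15 CPM before SE and at 85.31 and 159.48 CPM at 2 days, a logFC of 5.18 (adjusted p = 0.0020). *Fermt3*, which encodes kindlin-3, the activator of β2 integrins in blood cells and microglia, was named after its values were seen. It was at 2.28 and 1.35 CPM before SE, 2.15 and 1.37 CPM at 6 h, 9.20 and 8.74 CPM at 2 days and 9.99 and 7.43 CPM at 2 days with LEV, with a logFC of 2.29 (adjusted p = 0.0072) in SE 2 days mice.

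In the SE + LEV 2 days group several of these genes lay far apart between the 2 mice. *Spp1* was at 370.02 and 28.42 CPM, *Cd44* at 96.13 and 15.81 CPM, *Itga5* at 43.87 and 6.28 CPM and *Msn* at 55.39 and 28.96 CPM, with replicate 1, a library high in choroid plexus markers, the higher each time. *Itgb2* in the same mice was at 18.17 and 15.32 CPM, close together.

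The 2 genes called lower at 6 h were *Selplg* and *Icam5*. *Selplg* encodes PSGL-1, the ligand of P-selectin on leukocytes, and is also a gene of microglia. It was at 30.76 and 50.67 CPM before SE, 4.97 and 9.39 CPM at 6 h, 29.04 and 16.13 CPM at 6 h with LEV, 56.94 and 34.91 CPM at 2 days and 68.24 and 51.88 CPM at 2 days with LEV. The logFC at 6 h was -2.51 (limma adjusted p = 0.012), while the difference between SE + LEV and SE mice at 6 h, 1.65, had an adjusted p of 0.47. *Icam5*, a neuronal member of the ICAM family, was at 126.02 and 157.12 CPM before SE and 62.90 and 72.36 CPM at 6 h, a logFC of -1.06 (adjusted p = 0.046), opposite in sign to that of *Icam1*.

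**Figure D5:**
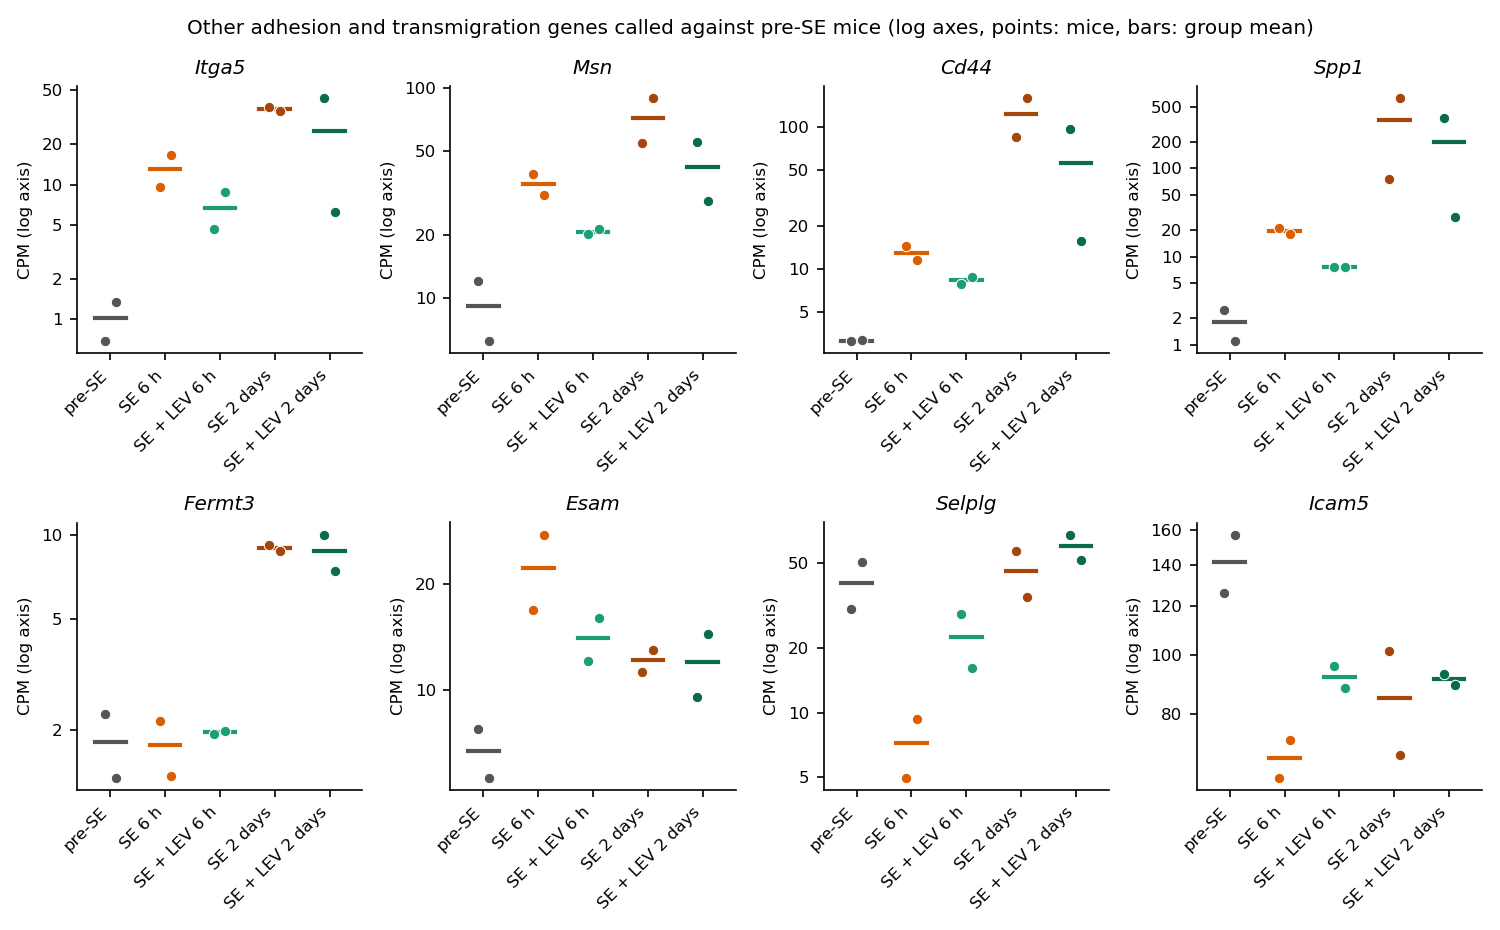
CPM (vertical axes, log scale) of 8 other adhesion and transmigration genes called in SE 6 h or SE 2 days mice against pre-SE mice; points are the 2 mice of a group and bars the group mean. *Spp1*, *Cd44* and *Itga5* have their highest means in the 2 days groups, and *Selplg* and *Icam5* are lowest in SE 6 h mice.

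Genes whose 4 logFC values against pre-SE lay nearest to those of a called member were picked from 14214 genes with a mean of at least 1 CPM, by the mean absolute difference. The 4 comparisons share their pre-SE mice. Nearest to *Icam1* were *G530011O06Rik* (0.26), *Il4ra* (0.30), the α chain of the interleukin-4 receptor, and *Loxl2* (0.31), a lysyl oxidase of the matrix. Nearest to *Itgb2* were *C1qc* (0.13), a chain of complement C1q, *Clec5a* (0.14), a myeloid lectin receptor, and *Klhl6* (0.15). Nearest to *Itgax* were *Tbxas1* (0.19), thromboxane synthase, *Fancd2* (0.19), a gene of DNA repair, and *Irf8* (0.20), a transcription factor of myeloid cells. For *Icam1*, *Itgb2* and *Itgax* the differences are smaller than the standard errors of their own logFC, 0.45, 0.32 and 0.50. The ranking among near genes is thus within the error for each of them.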

How the data were processed

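CAGE tags of whole hippocampi from 10 mice, 2 in each of 5 groups, were used. Per the labels and methods, the authors mapped tags to mm9 with BWA 0.7.17 and the rest with HISAT2 2.0.5, grouped tags into clusters of at least 0.1 CPM with the RECLU pipeline and deposited 1 CPM value per gene and mouse; how clusters were summed to genes, and whether by strand, is not given in the sources used here. Samples were grouped by their GEO labels, and 0 columns were left unmapped. Tag counts were recovered as whole multiples of 1 tag (100% of values within a rounding of 0.005 CPM). Genes that reached 0.1 CPM in 2 or more libraries were compared on log2(CPM + 0.1) with limma 3.58.1 in R 4.3.3 (1 fit, 5 group means, mean-variance trend, two-sided, Benjamini-Hochberg). The offset understates changes of scarce genes. The smallest two-sided exact permutation p with 2 against 2 mice is 0.333, so calls rest on the spread shared across genes. Intervals and floors cover these mice only.

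Alternatives were other pseudocounts (0.01, 0.5 and 1), filters, median-of-ratios rescaling, the replicate number as a block, no trend, only the groups compared, edgeR 4.0.16 and DESeq2 1.42.0 on recovered tags, and each mouse left out; the fit without 4 libraries and a crossed block were chosen after seeing the data. The members and lists were chosen with earlier results of these data known. Named were all members, the called genes of the adhesion list with up to 3 per comparison and direction given with values (*Fermt3* is an addition), and the 3 genes nearest to each called member. Methods were tested on simulated data. Positions come from the Ensembl annotation of mm9 and promoters from a RefSeq table of GRCm38.p6; figures were drawn with matplotlib 3.10.9 in Python 3.11.15.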

Additional observations from a re-analysis of the deposited data

Results flagged for a closer look

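The difference between 2 days and 6 h was past the threshold of the limma test (all genes adjusted together) for 4 member results. Over all genes, 3.14% were called higher in SE mice and 2.06% in SE + LEV mice. The 4 results depended on the mice included, as given with the direct comparison of the times. In SE mice these were *Itgb2*, with a logFC of 1.94 (higher in 2 of 2 mice than in both mice at 6 h, adjusted p = 0.010), and *Itgam*, with 2.2 (adjusted p = 0.033), whose groups did not overlap either. In SE + LEV mice they were *Itgb2*, with 2.37 (adjusted p = 0.0063), and *Itgax*, with 2.61 (adjusted p = 0.028). The summed microglial markers were higher at 2 days in the same mice, at 880 to 1163 CPM beside 278 to 300 CPM at 6 h, and their part in these differences was not tested. No member passed the test for a difference in the LEV effect between the times.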

How the results depend on the processing

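Of 798 values of single members under the alternatives (of the fits with a mouse left out, the lowest and highest), 720 kept their direction and side of the threshold, 40 were no longer called, 6 became called and 32 changed sign; of 128 counts of called members, 103 stayed within 1.5 times. Main counts against pre-SE were 1 in SE 6 h mice (2 with DESeq2, 0 without the 4 libraries high in choroid plexus markers, 0 to 1 with a mouse left out), 3 in SE 2 days mice (5 with DESeq2, 1 without the 4 libraries), 1 in SE + LEV 6 h mice (0 with pseudocounts 0.5 or 1, the replicate block, no trend, only the groups compared or without the 4 libraries, 0 to 1 with a mouse left out) and 3 in SE + LEV 2 days mice (0 with only the groups compared or without the 4 libraries, 1 to 2 with a mouse left out). Between the times they were 2 in SE mice (1 with edgeR, 0 without the 4 libraries, 0 to 1 with a mouse left out) and 2 in SE + LEV mice (1 with pseudocount 0.01 or edgeR, 0 with only the groups compared or without the 4 libraries, 0 to 1 with a mouse left out). Other counts stayed within 1.5 times of the main count. Among them were those in SE 2 days mice with a mouse left out, where *Itgax* was never called. Fits with fewer libraries have fewer degrees of freedom, and otherwise the cause was not tested.

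Changes of sign were confined to values that had not been called. Against SE mice at 6 h, the LEV logFC of *Icam1* became 0.06 with edgeR and 0.05 with DESeq2, that of *Itga4* -0.01 with rescaling or DESeq2 and -0.0018 with edgeR, and, without the 4 libraries, that of *Itgb2* 0.03 and that of *Itgam* -0.89. At 2 days that of *Itgb2* became -0.03 with rescaling, -0.02 with edgeR or DESeq2 and -0.10 without the 4 libraries. Without them, *Icam2* became 0.38 in SE + LEV 6 h and *Itga4* 0.21 in SE + LEV 2 days mice against pre-SE, and *Icam1* 0.25 and 0.26 between the times in SE and SE + LEV mice. With a mouse left out, the LEV logFC at 6 h ran from -0.68 to 0.62 for *Icam1*, -0.68 to 0.07 for *Vcam1*, -0.46 to 0.89 for *Itgam* and -0.19 to 0.28 for *Itga4*. At 2 days it ran from -0.44 to 0.03 for *Icam1*, -0.10 to 0.14 for *Itgb2*, -0.36 to 0.22 for *Itgam*, -0.13 to 0.38 for *Itgax* and -0.33 to 0.78 for *Itga4*. Against pre-SE it ran from -1.35 to 0.0021 for *Itgam* in SE 6 h mice, -0.43 to 0.30 for *Icam2* and -0.67 to 0.33 for *Itgax* in SE + LEV 6 h mice and -0.78 to 0.06 for *Itga4* in SE + LEV 2 days mice. Between the times it ran from -0.55 to 0.25 for *Icam1* and -0.61 to 0.50 for *Itga4* in SE mice, and from -0.97 to 0.33 and -0.29 to 0.54 in SE + LEV mice.

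Same-numbered mice were different animals and shared only a number; their deviations correlated between -0.44 (SE + LEV 2 days against pre-SE) and 0.34 (SE 6 h against pre-SE). With the replicate block the counts were 1 and 3 in SE 6 h and SE 2 days mice against pre-SE, 0 and 3 in SE + LEV mice, 0 and 0 for LEV against SE, and 2 and 3 between the times. With the numbers crossed in SE + LEV 2 days mice, added after seeing the data, they were 0 against SE and 3 against pre-SE.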
